A study of Mus musculus with 32 samples.

Results

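The BCL2 family decides whether a cell starts the mitochondrial route of apoptosis, and the transcripts of 10 of its genes were followed here across 3 mouse experiments on the B-cell transcription factor Ebf1. The members were listed by name: Bcl2, Bcl2l1 and Mcl1, which hold cell death back, Bax and Bak1, which carry it out, and Bcl2l11, Pmaip1, Bbc3, Bik and Bmf, which start it. Every probe set that the array's annotation assigns to 1 of these genes alone was used. That gave 30 probe sets for 9 of the 10 genes, out of 45037 probe sets tested and 18193 genes measured. Bax was not analysed here, because no probe set was assigned to it alone in the annotation used. Mcl1 had 6 probe sets, Bcl2 and Bcl2l11 5 each, Bcl2l1 4, Bik and Bmf 3 each, Bak1 2, and Pmaip1 and Bbc3 1 each.

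In healthy cells Bcl2, Bcl-xL (the product of Bcl2l1) and Mcl1 sit mainly on the outer mitochondrial membrane, where they bind Bax and Bak1 and keep them from forming pores. The BH3-only proteins Bim (Bcl2l11), Noxa (Pmaip1), Puma (Bbc3), Bik and Bmf occupy the groove of the protective proteins or engage Bax and Bak1 directly, after which cytochrome c leaves the mitochondria and caspases are activated. In early B cells interleukin-7 receptor signals sustain protective members of the family, Bim limits the number of B-lineage cells, and Puma and Noxa are classical targets of p53.

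The first experiment used 230238, a mouse pre-B cell line. Its cells carried the vector pMIG with Ebf1-engrailed, Ebf1 joined to a repressor domain, on 3 arrays, or pMIG alone on 3 arrays, and 500000 GFP-sorted cells were taken per sample. All 6 samples come from 1 line, infected with the vector. The second experiment used fetal liver cells of C57BL/6J E14.5 embryos that lack Ebf1 (Ebf1-/-). They were grown on OP9 stroma with KIT ligand, FLT3L and interleukin-7, received pMIG-Ebf1-ER and were selected by GFP, which gives them an Ebf1 protein kept inactive until 4-hydroxytamoxifen is added, and were harvested 0, 6, 12 and 24 h after the drug reached 0.1 µM, with 2 arrays per time. All 4 times share the Ebf1-/- genotype and the Ebf1-ER construct, and no array without drug at 6, 12 or 24 h is among the samples used here, so the drug, time since the cells were reseeded and active Ebf1 cannot be told apart against 0 h. The third used enlarged lymph nodes of C57BL/6 mice of about 30 weeks that carry 1 functional copy each of Ebf1 and Pax5 (Ebf1+/-Pax5+/-). The nodes were frozen alive, thawed and sorted for live cells, 1000000 per sample, without a stated selection of B cells, and 8 nodes had 2 arrays each. Sorted pro-B cells of wild-type C57BL/6 mice, on 2 arrays, were the control.

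The log2 expression values had been shifted, separately for each probe set and experiment, so that 0 is about the middle of that experiment's arrays. A value of 1 is then 2-fold above that middle, and neither the level of a gene nor a comparison of levels between genes or experiments can be read from it. For the same reason, whether the markers of a labelled cell type were present could not be checked, only whether they differed between groups. The first principal component held 63.5% of the variance in the 230238 experiment, 67.3% in the Ebf1-ER experiment and 27.9% in the tumour experiment. One of the 24 h arrays of the Ebf1-ER experiment stood apart in its spiked hybridisation controls, with a median of -6.26 against -0.48 to 0.72 on all other arrays of the series. Below, differences carry limma's standard error, a probe set was called where its Benjamini-Hochberg adjusted p over all 45037 probe sets was under 0.05, and a gene rose or fell where at least 1 of its probe sets was called that way and none the other way. A gene with more probe sets has more chances of a call. The members had 30 probe sets for 9 genes, against 34945 for 18193 genes, so shares of all genes are not matched to them. Where nothing says that replicates were separate cultures, p-values measure only the spread between these arrays, which may be technical. In these bulk samples fewer cells of a type and less RNA per cell cannot be told apart.

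Among the comparisons of groups, the family had most calls in the Ebf1-ER cells. Of the 30 probe sets 20 were called at 6 h against 0 h (28.9% of all probe sets were called), 3 at 12 h against 6 h (1.4% of all), 5 at 24 h against 12 h (2.84% of all) and 19 at 24 h against 0 h (32.4% of all). With Ebf1-Engrailed 7 were called (8.85% of all), and in the lymph nodes against wild-type pro-B cells 2 were (15.2% of all). Between the 8 nodes 23 of the 30 differed (54% of all). The contrast of 6 h with 0 h and that of 24 h with 0 h share the 0 h arrays.

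**Figure D1:**
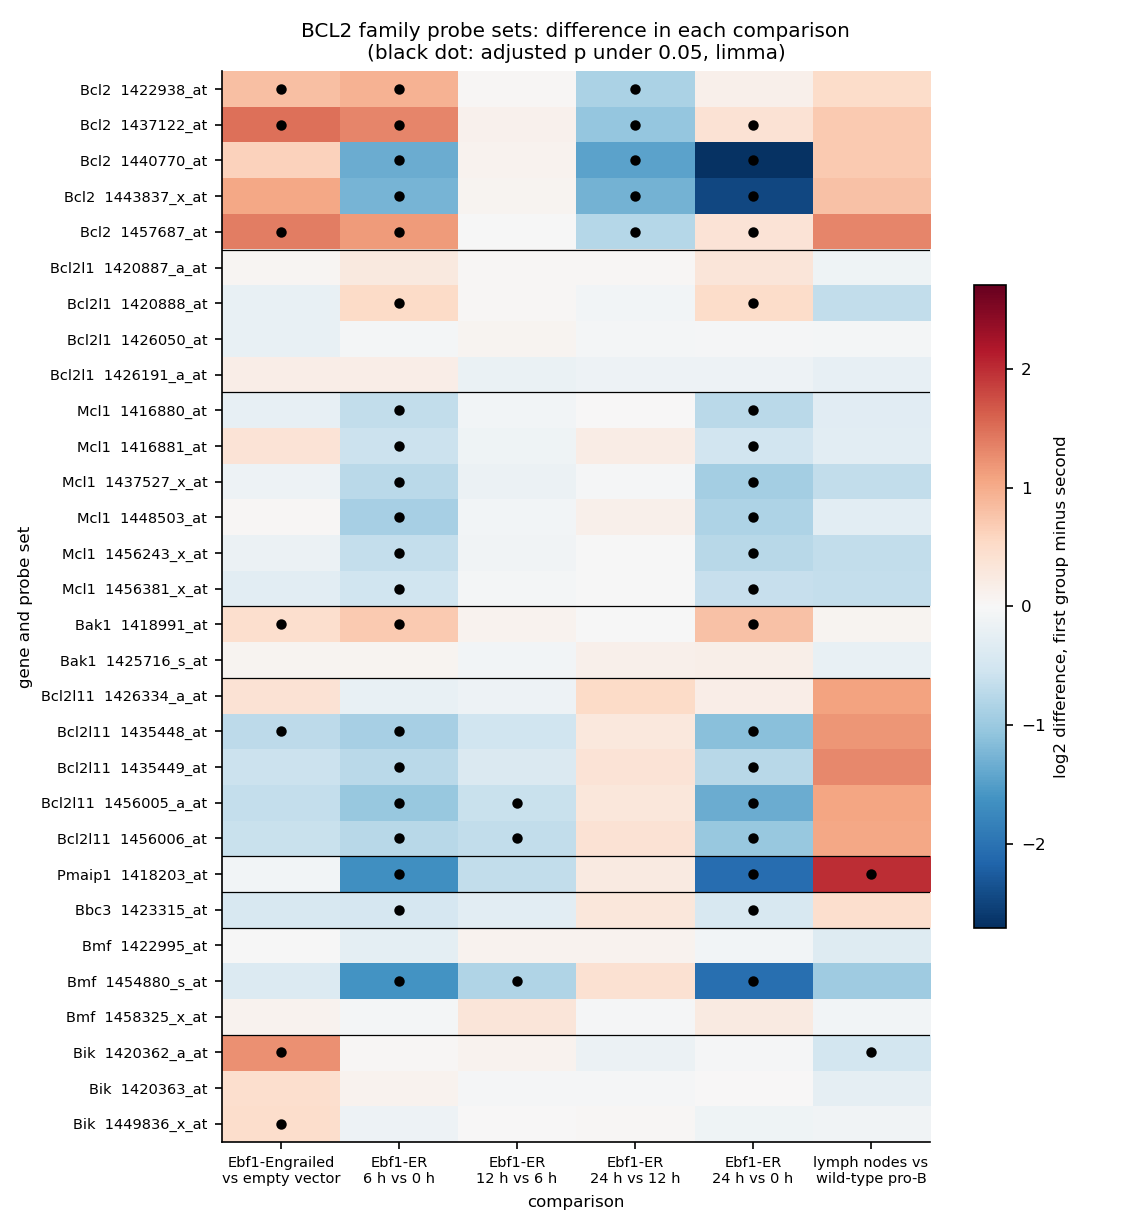
Log2 differences of the 30 BCL2 family probe sets (vertical axis, grouped by gene) in 6 comparisons (horizontal axis), red where the first group was higher and blue where it was lower, with a black dot where limma's adjusted p was under 0.05. The 5 Bcl2 probe sets split into both colours at 6 h against 0 h and are all blue at 24 h against 12 h, and the lymph node column has 2 dots.

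In the Ebf1-ER cells Bcl2 did not give 1 answer: 3 of its probe sets rose between 0 and 6 h and 2 fell, and all 5 fell between 12 and 24 h. A gene with calls in both directions is mixed here, which a gene with 1 probe set cannot be. Of all genes 0.874% were mixed at 6 h against 0 h. The gene lies at chr1:106538176-106714290 (GRCm38.p6) on the minus strand. For 1437122_at the values were -0.84 and -0.86 at 0 h, 0.45 and 0.50 at 6 h, 0.63 and 0.55 at 12 h and -0.46 and -0.45 at 24 h. Both 6 h and both 12 h arrays lay above all others, and the 24 h arrays lay above the 0 h arrays. Between 0 and 6 h this probe set rose 2.50-fold (log2 difference 1.32 ± 0.08, adjusted p = 2.8e-05), and 1422938_at and 1457687_at rose by 0.94 ± 0.12 and 1.15 ± 0.09.

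The other 2 Bcl2 probe sets started high. Values of 1443837_x_at were 1.17 and 1.27 at 0 h, 0.0028 and -0.09 at 6 h, 0.07 and -0.0028 at 12 h and -1.16 and -1.33 at 24 h. The 0 h arrays were the highest and the 24 h arrays the lowest, with no overlap with the middle times. From 0 to 6 h the difference was -1.26 ± 0.10 (adjusted p = 6.66e-05), and for 1440770_at it was -1.33 ± 0.16 (adjusted p = 0.000586). Within each of these groups the probe sets moved together over the 8 arrays, with Pearson's r of 0.962 to 0.993 among the first 3 and 0.994 between the other 2, while r between the groups was -0.251 to -0.08. These correlations are descriptions over arrays that share times. The suffix _x marks a probe set whose probes may also bind other transcripts, and 1440770_at, which moved with it, does not carry that suffix.

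The Bcl2 probe sets were called in opposite directions only in the contrasts with 0 h. Between 6 and 12 h none was called, with differences of -0.01 to 0.12. All 5 fell between 12 and 24 h, with differences of -0.85 ± 0.12 (1422938_at), -1.04 ± 0.08 (1437122_at), -0.78 ± 0.09 (1457687_at), -1.44 ± 0.16 (1440770_at) and -1.28 ± 0.10 (1443837_x_at) on the log2 scale, with adjusted p between 0.00349 and 0.0145. Of all genes, 1.85% fell in this contrast. In each probe set both 24 h arrays lay below both 12 h arrays, as was the case in one direction or the other for 49.5% of all probe sets. Bcl2 was the 1 member called in this contrast (4.59% of all genes were). Net of the course, 24 h against 0 h left 1437122_at and 1457687_at higher (0.39 ± 0.08 and 0.36 ± 0.09), 1422938_at not past the test (0.14 ± 0.12, adjusted p = 0.432) and 1440770_at and 1443837_x_at lower by 6.39-fold and 5.52-fold. Without the 24 h array whose spiked controls stood apart, 1 of the 5 Bcl2 calls between 12 and 24 h remained (1443837_x_at), and without array 1 of the 12 h group none did, at an adjusted p of 0.0508 for 1443837_x_at and 1437122_at. Without the other array of either time, 2 or 3 of the 5 remained. In these fits the lone array of a time is taken to vary like the others.

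Mcl1, a short-lived protective protein that lymphoid cells depend on, fell on every one of its 6 probe sets. The gene lies at chr3:95656944-95663179. For 1448503_at the values were 0.84 and 0.89 at 0 h, -0.04 and -0.01 at 6 h, -0.14 and -0.07 at 12 h and 0.01 and 0.06 at 24 h. The 0 h arrays stood alone above the other 6, which lay between -0.14 and 0.06. The fall from 0 to 6 h was 1.85-fold (-0.89 ± 0.08, adjusted p = 0.000164), and over the 6 probe sets the differences ran from -0.89 to -0.53. None of the 6 was called between later times. Bcl2l1, the gene of Bcl-xL, rose on 1 of 4 probe sets: 1420888_at stood at -0.32 and -0.67 at 0 h and between -0.03 and 0.11 on the 6 later arrays, a rise of 0.52 ± 0.12 by 6 h (adjusted p = 0.0159). That call was lost without array 2 of the 0 h group (adjusted p = 0.0583) or array 2 of the 6 h group (adjusted p = 0.081). Its other 3 probe sets gave 0.26 ± 0.17, -0.06 ± 0.10 and 0.18 ± 0.14 and did not pass.

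Bak1, an effector that forms pores in the outer membrane, rose on 1 of 2 probe sets. The gene lies at chr17:27019812-27028627. Values of 1418991_at were -0.86 and -0.61 at 0 h, -0.08 and 0.03 at 6 h, 0.09 and 0.04 at 12 h and 0.12 and -0.03 at 24 h. Both 0 h arrays lay below the rest, and the rise by 6 h was 1.64-fold (0.71 ± 0.11, adjusted p = 0.00218). The probe set 1425716_s_at gave 0.07 ± 0.15 with overlapping groups.

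Of the 5 BH3-only genes 4 fell in the Ebf1-ER cells between 0 and 6 h (Pmaip1, Bmf, Bcl2l11 and Bbc3) and Bik did not pass, where 16.9% of all genes fell and 19.7% rose. The largest difference was in Pmaip1, the gene of Noxa, which binds Mcl1 and marks it for degradation. Its values were 1.68 and 2.01 at 0 h, 0.22 and 0.18 at 6 h, -0.59 and -0.32 at 12 h and -0.24 and -0.18 at 24 h. The 0 h arrays were far above the other 6 and the 12 h arrays lowest. Pmaip1 was 3.14-fold lower at 6 h (-1.65 ± 0.14, adjusted p = 8.5e-05) and 4.17-fold lower at 24 h, and between 6 and 12 h it changed by -0.66 ± 0.14 without passing (adjusted p = 0.0768).

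Bmf, which is held at the cytoskeleton in healthy cells, followed a like course on 1 of its 3 probe sets. The gene lies at chr2:118528757-118549686. Values of 1454880_s_at were 1.65 and 1.91 at 0 h, 0.18 and 0.14 at 6 h, -0.62 and -0.70 at 12 h and -0.14 and -0.38 at 24 h. Each time was apart from the others, and the order from the top was 0, 6, 24 and 12 h. The fall was 3.07-fold from 0 to 6 h (adjusted p = 5.79e-05) and a further 1.77-fold from 6 to 12 h (-0.82 ± 0.12, adjusted p = 0.0222). The probe sets 1422995_at and 1458325_x_at gave -0.27 ± 0.14 and -0.06 ± 0.15 from 0 to 6 h and were not called.

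Bcl2l11, the gene of Bim, fell on 4 of 5 probe sets by 6 h, and 2 of the 4 fell again by 12 h. The gene lies at chr2:128126038-128162547. Values of 1456005_a_at were 1.24 and 1.15 at 0 h, 0.13 and 0.18 at 6 h, -0.49 and -0.41 at 12 h and -0.13 and -0.15 at 24 h. No 2 times overlapped, with 0 h highest and 12 h lowest. From 0 to 6 h the 4 called probe sets differed by -1.03 ± 0.09, -0.89 ± 0.10, -0.75 ± 0.09 and -0.73 ± 0.11, with adjusted p from 9.21e-05 to 0.00144. From 6 to 12 h 1456006_at fell by 0.66 and 1456005_a_at by 0.61 on the log2 scale (adjusted p = 0.0155 and 0.0181). The fifth probe set, 1426334_a_at, stood at 0.05 and 0.07 at 0 h and differed by -0.20 ± 0.14 at 6 h without passing, and it was highest at 24 h (0.31 and 0.18).

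Bbc3, the gene of Puma, and Bik, a BH3-only protein of the endoplasmic reticulum, moved least among the 5. Bbc3 lies at chr7:16308398-16318334. Its values were 0.30 and 0.58 at 0 h, -0.06 and 0.05 at 6 h, -0.45 and -0.15 at 12 h and 0.03 and -0.03 at 24 h. The 0 h arrays were above the rest, and the fall to 6 h was -0.45 ± 0.14 (adjusted p = 0.0416). That call was lost when either array of the 6 h or 24 h group or array 2 of the 0 h group was left out, with an adjusted p up to 0.19. The 3 Bik probe sets differed by 0.02 ± 0.15, 0.09 ± 0.13 and -0.15 ± 0.11.

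The calls between 6 and 12 h, for Bcl2l11 and Bmf, rest on few arrays: leaving out either array of the 6 h or 12 h group ended all 3 of them, with adjusted p up to 0.186. Of all genes 2.42% were called in that contrast and 0.907% fell. The 8 genes called at 6 h against 0 h compare with 37.4% of all genes, and the 8 called at 24 h against 0 h with 41.1%. At 24 h against 0 h Bak1 and Bcl2l1 rose (21.6% of all genes did), 5 genes fell (18% did) and Bcl2 was mixed (1.52% were). At 24 h against 0 h the calls of Bbc3 and Bcl2l1 were both lost without array 2 of the 0 h group or without either 24 h array, with adjusted p up to 0.183 and 0.0883, and that of Bbc3 also without either 6 h array (adjusted p = 0.0563). Groups did not overlap in 24 of the 30 probe sets at 6 h against 0 h, and neither did they in 58% of all probe sets. At 12 h against 6 h this held for 19 of 30 and 45.9% of all, and at 24 h against 0 h for 22 of 30 and 62.3%.

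**Figure D2:**
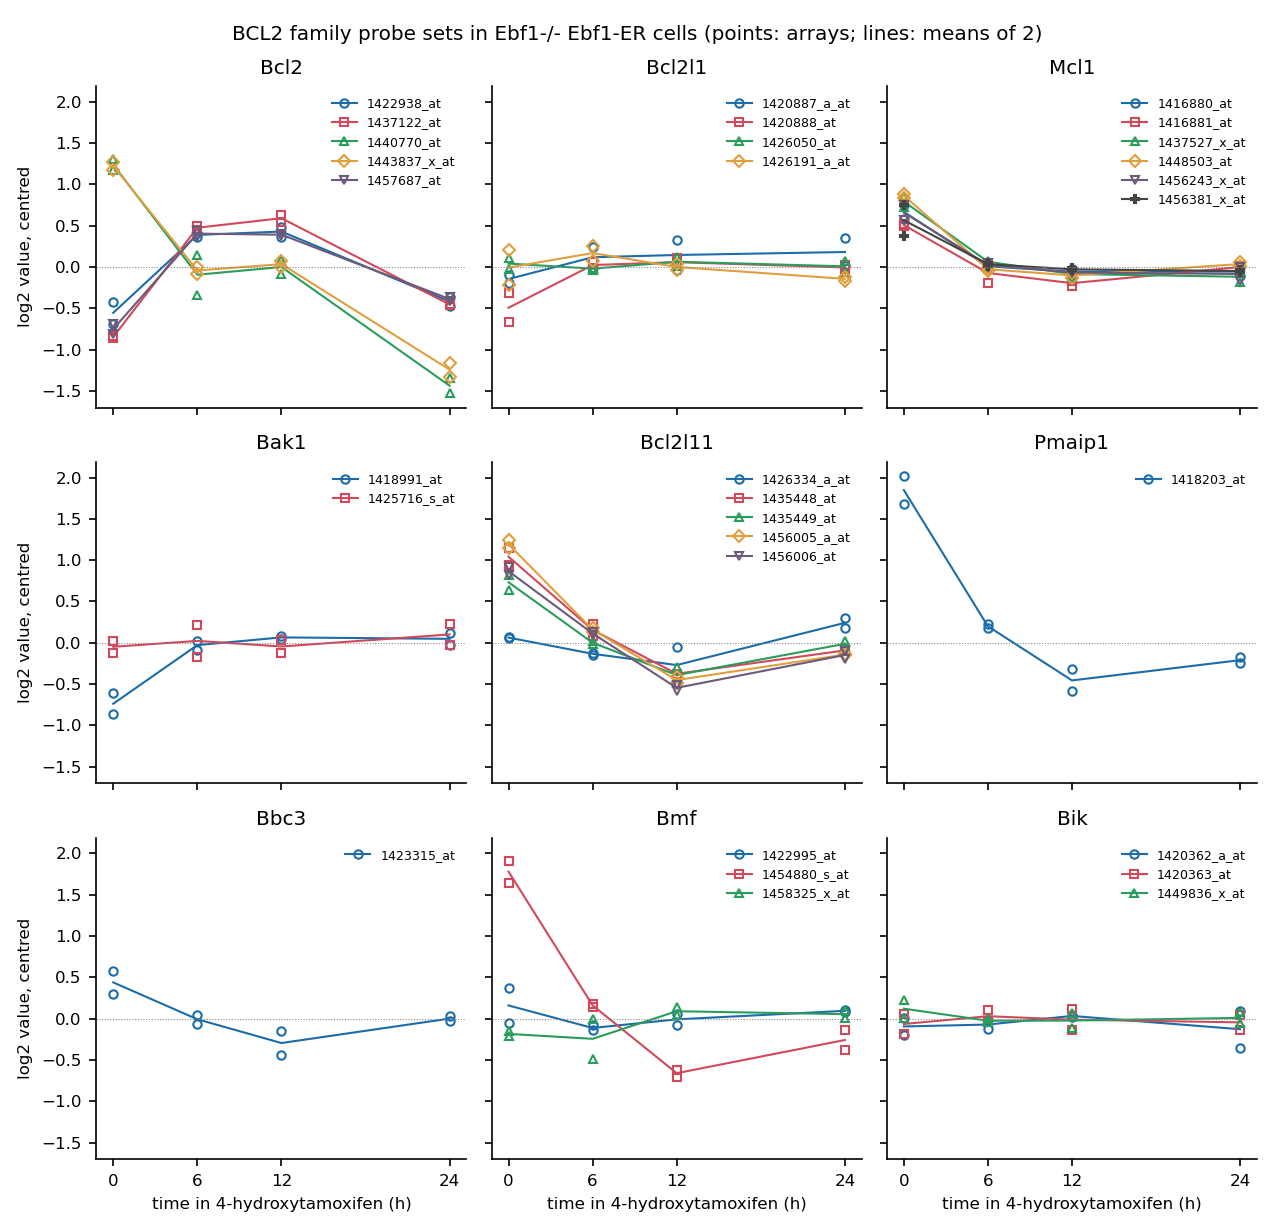
Centred log2 values (vertical axis) of each BCL2 family probe set on the 8 Ebf1-ER arrays by time in 4-hydroxytamoxifen in hours (horizontal axis), with 1 panel per gene, points for arrays and lines through the means of 2. Pmaip1, Bmf (1454880_s_at), 4 of the 5 Bcl2l11 probe sets and all 6 of Mcl1 are highest at 0 h, Bcl2l11 1426334_a_at is highest at 24 h, and the Bcl2 panel shows 2 courses that cross between 0 and 6 h and both fall after 12 h.

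Other lists moved with the 0 h arrays. The mean of 15 immediate-early and stress genes was 3.05 to 3.25 on the 0 h arrays and -0.27 to 0.08 on the 6 later arrays, and 14 of the 15 fell by 6 h. The mean of 5 natural killer cell genes was 0.82 to 0.90 at 0 h and -0.34 to 0.18 later, with 4 of 5 lower at 6 h, and that of 8 stromal genes was 0.46 to 0.83 at 0 h and -0.26 to 0.35 later, with 2 of 8 lower. The mean of 9 T-cell genes was 0.40 to 0.44 at 0 h and -0.15 to 0.03 later, with 5 of 9 lower at 6 h, among them Cd28 by 3.00-fold, while Cd3e did not pass (-0.19 ± 0.15). That of 10 myeloid genes was 0.31 to 0.42 at 0 h and -0.20 to 0.13 later, with 4 of 10 lower, Itgam by 5.15-fold, and 1 higher. Mature B genes had a mean of 0.08 to 0.10 at 0 h and -0.07 to 0.06 later, and none of the 7 passed limma's test at 6 h. Of 11 early B-lineage genes 2 rose by 6 h, Vpreb1 by 1.86-fold, and 4 fell, Dntt by 8.11-fold. Of 9 cycling genes 4 rose and 3 fell by 6 h. At 24 h against 0 h all 9 cycling genes rose, and 3 early B-lineage genes rose and 3 fell. Their part in the differences of the BCL2 family was not tested, and a summed level in absolute terms cannot be read from centred values. In the contrasts of 12 h with 6 h and of 24 h with 12 h the same 15 genes gave 2 and 0 calls. The 0 h arrays enter neither difference, but all 8 arrays share 1 estimate of the spread. The mean of 9 cycling genes lay between -0.58 and -0.53 at 6 h and between 0.32 and 0.36 at 12 h, with 7 of 9 higher, beside the falls of Bcl2l11 and Bmf. The mean of 11 early B-lineage genes was -0.14 to -0.13 at 12 h and 0.32 to 0.38 at 24 h, with 6 of 11 higher, beside the fall of Bcl2. The part of these lists was not tested either.

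Around the family, genes of the same pathway moved in both directions. Among 19 measured genes of the apoptosome, caspases and their inhibitors 8 rose and 9 fell by 6 h (median difference -0.22, all genes 0.02). Cycs, which encodes cytochrome c, rose by 1.46 ± 0.09 and Diablo, which relieves caspase inhibition, by 1.23 ± 0.08, while Cflar, an inhibitor of caspase-8, fell by 1.72 and Casp6, an executioner caspase, by 1.05 on the log2 scale. Of 11 other BCL2 family genes Bid (1.01 ± 0.32) and Bcl2l13 (0.45 ± 0.09) rose and Bcl2l2, a protective member, fell by 0.81. Of 18 p53 targets outside the family 4 rose and 9 fell (median difference -0.18), with Aen at 2.12 ± 0.11 and Btg2 at -3.08 ± 0.11. Of 23 regulators 3 rose, 13 fell and 1 was mixed (median difference -0.25).

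The regulators most often set beside the family followed different courses. Il7r, the interleukin-7 receptor chain, was lower on both of its probe sets at 6 h and at 24 h against 0 h. Foxo1, a transcription factor that can activate Bcl2l11 and Bbc3, did not give 1 course: 2 of its 4 probe sets fell between 0 and 6 h, 1416983_s_at by 0.63 on the log2 scale, and 2 rose between 12 and 24 h, 1416982_at by 0.69 ± 0.10. The latter had a mean of -0.01 at 0 h and 0 at 12 h. Myc, which sensitises cells to apoptosis, fell between 12 and 24 h (-1.16 ± 0.10), the interval in which Bcl2 fell. In that interval 3 of the 19 apoptosome and caspase genes rose, among them Apaf1, the scaffold of the apoptosome (0.82 ± 0.10), and 1 fell, Diablo, on both of its probe sets (-0.63 ± 0.09 on 1425768_at). Of the 18 p53 targets 3 rose, among them Trp53inp1 (0.96 ± 0.09) and Btg2 (0.83 ± 0.11), and of the 23 regulators 2 rose and 2 fell.

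The promoters of 8 of the 10 genes were found in RefSeq's table for GRCm38.p6, as 15 windows of 300 bases that end 50 bases after a start site. The windows were searched on both strands for letters typical of 4 factor families, and a match is a description of the letters, not a binding site. No window held the EBF letters, TCCC and GGGA with any 2 bases between them (0.904% of 32851 promoters did) or the STAT letters TTCNNNGAA (8.3% did). The E-box letters CANNTG were in 11 of the 15 windows (72.3% of all promoters). The FOXO letters GTAAACA were in 2 windows (3.65% of all promoters), 1 of Bcl2l11 and 1 of Bbc3. Both genes fell by 6 h, as did Mcl1 and Bmf, whose windows held no FOXO letters. A part of FOXO factors in these falls was not tested. The 2 windows with a match are shown with the FOXO letters in capitals. In the Bcl2l11 window (chr2:128125788-128126087, plus strand) they lie at -227 to -221 from the start site. In the Bbc3 window (chr7:16310011-16310310, plus strand) they lie on the opposite strand, at -167 to -161. The windows of Pmaip1 and Bik were not analysed here.
Bcl2l11 promoter 1: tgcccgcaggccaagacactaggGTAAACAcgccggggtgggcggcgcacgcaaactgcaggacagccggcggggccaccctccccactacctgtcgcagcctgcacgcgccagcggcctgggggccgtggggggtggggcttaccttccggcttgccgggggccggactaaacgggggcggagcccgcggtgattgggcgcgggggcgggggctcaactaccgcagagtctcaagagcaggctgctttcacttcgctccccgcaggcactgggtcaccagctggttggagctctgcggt
Bbc3 promoter 2: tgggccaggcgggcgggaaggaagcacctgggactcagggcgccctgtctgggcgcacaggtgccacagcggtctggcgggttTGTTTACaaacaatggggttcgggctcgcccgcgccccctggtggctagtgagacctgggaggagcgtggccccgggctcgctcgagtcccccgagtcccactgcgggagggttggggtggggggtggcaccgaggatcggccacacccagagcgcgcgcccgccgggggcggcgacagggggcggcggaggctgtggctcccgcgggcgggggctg

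In the pre-B line Bcl2, Bak1 and Bik rose and Bcl2l11 fell with Ebf1-Engrailed, and the other 5 genes did not pass. Of all genes 8.41% rose, 6.3% fell and 14.7% had a called probe set, against 4 of the 9 here. Groups did not overlap in 19 of the 30 probe sets and in 27.4% of all probe sets. These calls are from a fit that does not pair arrays by number. With the replicate number as a block, 9 of the 30 were called in place of 7, and Bcl2l11 became mixed.

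Bcl2 rose on the same 3 probe sets that rose in the Ebf1-ER cells by 6 h. Values of 1437122_at were 0.65, 0.71 and 0.72 with Ebf1-Engrailed and -0.72, -0.99 and -0.65 with empty vector. The groups did not overlap, and the rise was 2.78-fold (1.48 ± 0.11, adjusted p = 0.00085). For 1457687_at it was 2.59-fold and for 1422938_at 1.76-fold. The other 2 probe sets were split by replicate number: 1443837_x_at stood at -0.06, 0.06 and 1.75 with Ebf1-Engrailed and -1.10, -0.71 and 0.41 with empty vector, so array 3 was the highest of each group and the groups overlapped. Its difference of 1.05 ± 0.56 did not pass (adjusted p = 0.346), and neither did that of 1440770_at (0.63 ± 0.39). With the replicate number as a block, 1443837_x_at passed (adjusted p = 0.00496), and it was higher in each of the 3 pairs.

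Mcl1 and Bcl2l1, the other protective genes, gave no call. The 6 Mcl1 probe sets differed by -0.29 to 0.36 and the 4 of Bcl2l1 by -0.21 to 0.17. For Mcl1 the probe sets pointed both ways, with 0.36 ± 0.15 for 1416881_at and -0.29 ± 0.09 for 1456381_x_at. Bak1 stood at 0.14, 0.25 and 0.15 with Ebf1-Engrailed and -0.44, -0.14 and -0.25 with empty vector on 1418991_at, a rise of 0.46 ± 0.10 (adjusted p = 0.0387). The Bak1 call was lost when any 1 of the 6 arrays was left out, with an adjusted p up to 0.158, although the difference stayed between 0.38 and 0.52.

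Bik, which is at chr15:83526790-83544635, rose on 2 of 3 probe sets. Values of 1420362_a_at were 0.53, 0.88 and 0.55 with Ebf1-Engrailed and -0.56, -0.53 and -0.63 with empty vector. The groups were far apart, and the rise was 2.34-fold (1.23 ± 0.12, adjusted p = 0.0019). The second call, 1449836_x_at (0.47 ± 0.11, adjusted p = 0.0487), was lost without any 1 of the 6 arrays, and 1420363_at (0.45 ± 0.17) did not pass.

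Bcl2l11 was lower on 4 of 5 probe sets, and 1 of the 4 passed. Values of 1435448_at were -0.72, -0.62 and -0.15 with Ebf1-Engrailed and 0.27, 0.22 and 0.15 with empty vector. The groups did not overlap, and the fall was 1.63-fold (-0.71 ± 0.16, adjusted p = 0.0355). That call was lost when any array other than Ebf1-Engrailed array 3 was left out, with an adjusted p up to 0.146. For 1435449_at, 1456005_a_at and 1456006_at the differences were -0.57 ± 0.23, -0.63 ± 0.22 and -0.59 ± 0.19, with array 1 the highest and array 3 the lowest of the empty vector group in each. The fifth, 1426334_a_at, lay the other way (0.39 ± 0.11, adjusted p = 0.0695), and with the replicate block it passed (adjusted p = 0.0458), which turns the call for the gene from lower to mixed. Bbc3 stood at -0.65, -0.57 and 0.03 with Ebf1-Engrailed and 0.01, -0.01 and 0.14 with empty vector. Its arrays 1 and 2 were low and array 3 was not, and the difference of -0.44 ± 0.18 did not pass (adjusted p = 0.212). Without the 2 arrays numbered 3, a setting added after seeing the data, it passed (-0.61, adjusted p = 0.00751). Pmaip1 (-0.07 ± 0.16) and Bmf (1454880_s_at, -0.38 ± 0.24) did not pass.

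**Figure D3:**
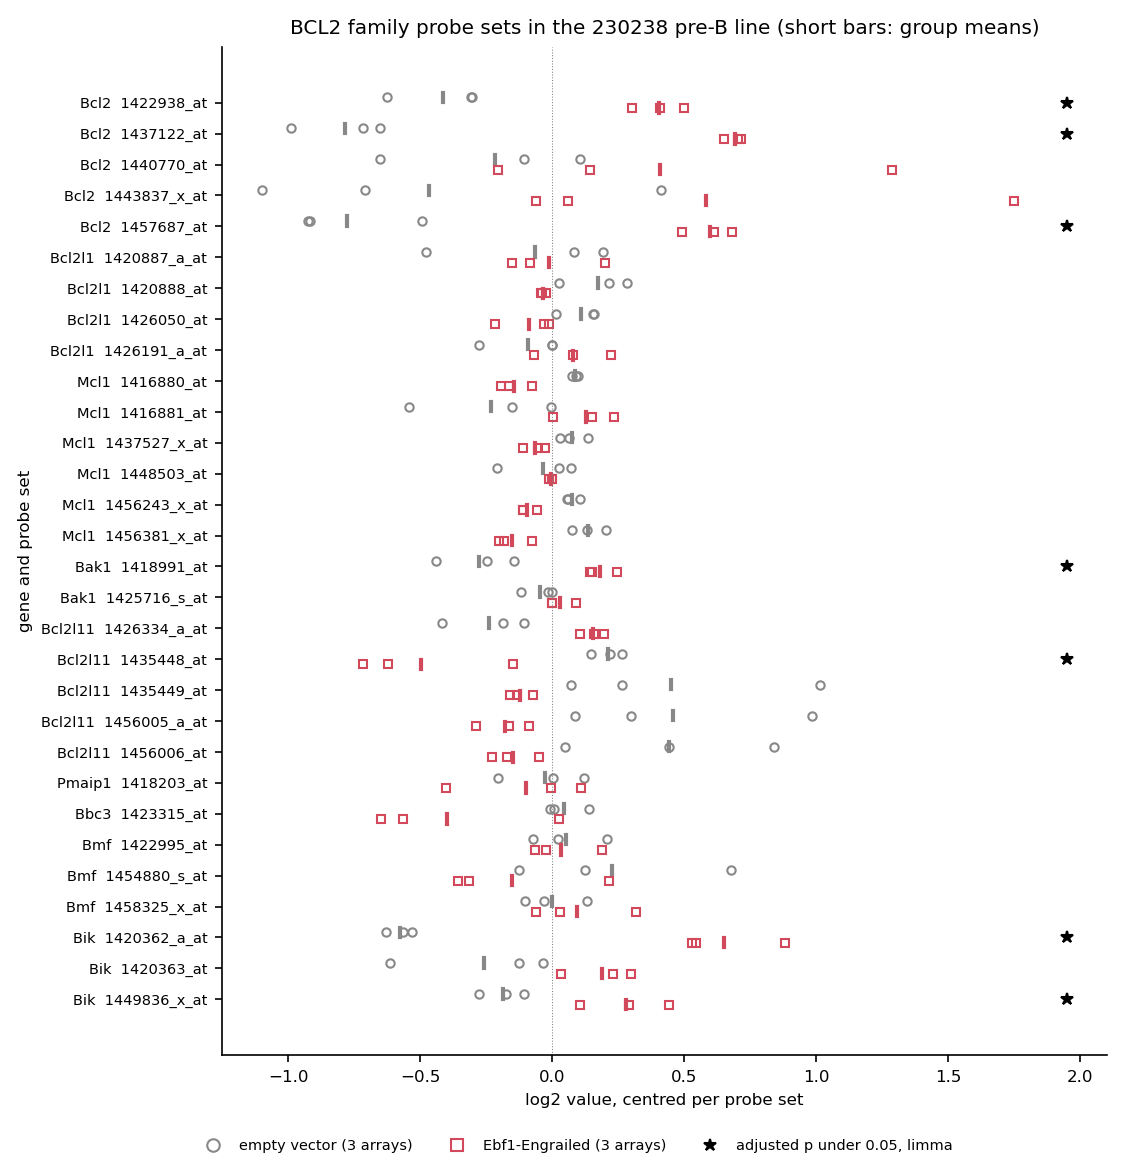
Centred log2 values (horizontal axis) of the 30 BCL2 family probe sets (vertical axis) on the 3 Ebf1-Engrailed arrays (red squares) and the 3 empty vector arrays (grey circles) of the 230238 line, with short bars for group means and a star where limma's adjusted p was under 0.05. Bcl2 1437122_at, 1457687_at and Bik 1420362_a_at show the widest gaps without overlap, and 1440770_at and 1443837_x_at of Bcl2 each have 1 Ebf1-Engrailed array far to the right.

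Genes of cell division and of the B lineage moved in the same contrast. The mean of 9 cycling genes was -0.67 to -0.39 with Ebf1-Engrailed and 0.51 to 0.64 with empty vector, and 8 of the 9 fell. Of 11 early B-lineage genes 6 fell, and the mean of the 11 was -1.11 to -0.31 against 0.42 to 0.80. The mean of 15 immediate-early and stress genes was 0.145 to 0.62 with Ebf1-Engrailed and -0.45 to -0.02 with empty vector. Of the 15, 5 rose, Ier3 by 94.0-fold and Dusp1 by 4.00-fold, and 1 fell. Myeloid genes had a mean of 0.33 to 0.41 with Ebf1-Engrailed and -0.36 to -0.22 with empty vector, with 2 of 10 higher. The means of the other lists did not overlap between the groups either. Mature B genes stood at 0.19 to 0.33 against -0.44 to -0.23 (2 of 7 higher), T-cell genes at 0.09 to 0.14 against -0.47 to -0.03 (1 of 9, Cd28) and natural killer cell genes at 0.04 to 0.32 against -0.22 to -0.10 (1 of 5). Stromal genes stood at 0.09 to 0.17 against -0.19 to -0.13 (1 of 8, Vim, by 4.37-fold) and erythroid genes at 0.01 to 0.29 against -0.08 to -0.03 (1 of 5). Their part in the BCL2 family differences was not tested. In the wider pathway 2 of 19 apoptosome and caspase genes rose (Casp6 by 1.04 ± 0.20 and Cflar by 0.83 ± 0.16) and 3 fell, among them Birc5 (-1.22 ± 0.13), an inhibitor of apoptosis that also serves in mitosis. Of 11 other family genes Bad, a BH3-only gene, rose (0.34 ± 0.08) and Bcl2l12 fell (-0.59 ± 0.12). Of 18 p53 targets Zmat3 rose (0.96 ± 0.11) and Btg2 fell (-0.94 ± 0.17). Foxo1 fell on 3 of 4 probe sets (-0.84 ± 0.10), Bcl6, a repressor of several damage response genes, rose (1.59 ± 0.16), and Il7r (0.46 ± 0.33) and Myc (-0.59 ± 0.22) did not pass.

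Set side by side, without a test of the difference, Bcl2 1437122_at was 1.48 ± 0.11 with Ebf1-Engrailed and 1.32 ± 0.08 in the Ebf1-ER cells at 6 h against 0 h. Bak1 1418991_at was 0.46 ± 0.10 and 0.71 ± 0.11, and Bcl2l11 1435448_at was -0.71 ± 0.16 and -0.89 ± 0.10. Other probe sets of these genes lay in opposite directions: Bcl2 1443837_x_at was 1.05 ± 0.56 and -1.26 ± 0.10, Bcl2 1440770_at 0.63 ± 0.39 and -1.33 ± 0.16, and Bcl2l11 1426334_a_at 0.39 ± 0.11 and -0.20 ± 0.14. Mcl1 1416881_at was 0.36 ± 0.15 and -0.58 ± 0.10, but other Mcl1 probe sets were lower in both, such as 1456381_x_at at -0.29 ± 0.09 and -0.53 ± 0.13. Pmaip1 was -0.07 ± 0.16 and -1.65 ± 0.14, and Bik 1420362_a_at 1.23 ± 0.12 and 0.02 ± 0.15. All these Ebf1-ER values are of 6 h against 0 h, and other intervals differed. At 24 h against 12 h, where the 0 h arrays do not enter the difference, Bcl2 1437122_at was -1.04 ± 0.08. There Bak1 1418991_at (-0.02 ± 0.11) and Bcl2l11 1435448_at (0.28 ± 0.10) did not pass.

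Against wild-type pro-B cells Pmaip1 was higher in the lymph nodes and Bik lower on 1 of its 3 probe sets, and the other 7 genes did not pass, where 13% of all genes rose, 10.1% fell and 23.5% had a called probe set. Groups did not overlap in 12 of the 30 probe sets and in 24.9% of all. Pmaip1 values over the 8 nodes ran from -0.36 through a median of 0.03 to 1.82, and the 2 wild-type arrays stood at -2.08 and -1.36. All 8 nodes lay above both wild-type arrays, and the difference was 3.96-fold (1.98 ± 0.48, adjusted p = 0.0198). Bik 1420362_a_at ran from -0.19 through -0.04 to 0.09 in the nodes against 0.51 and 0.37 in wild-type cells. All 8 nodes lay below both wild-type arrays, with a difference of -0.49 ± 0.09 (adjusted p = 0.00443). The Pmaip1 call was lost without wild-type array 1 (adjusted p = 0.176) or array 2 (adjusted p = 0.0866), and that of Bik without array 1 (adjusted p = 0.0601).

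Among the differences that did not pass, the largest was 1.31 ± 0.91 in Bcl2 1457687_at, below that of Pmaip1 and above that of Bik. Bcl2l11 was higher by 1.04 to 1.30 on all 5 probe sets. On 1435449_at its nodes ran from -0.43 through 0.13 to 2.38 against -0.95 and -0.95 in wild-type cells, so all 8 nodes lay above both wild-type arrays, and the difference of 1.30 ± 0.60 had an adjusted p of 0.182. Without node 317, the highest, the difference was smaller and passed (1.01, adjusted p = 0.0388). Bcl2 differed by 0.50 to 1.31 with groups that overlapped on all 5 probe sets. Mcl1 was lower by 0.29 to 0.66 on all 6, and on 3 of them (1437527_x_at, 1456243_x_at and 1456381_x_at) all 8 nodes lay below both wild-type arrays, with adjusted p of 0.0899, 0.0796 and 0.0856. These 3 carry the suffix _x, whose probes may also bind other transcripts. On 1416880_at 2 nodes lay above both wild-type arrays, and on 1416881_at and 1448503_at 1 node each did. Bcl2l1 1420888_at ran from -0.58 through -0.16 to 0.26 in the nodes against 0.55 and 0.40 (-0.67 ± 0.23, adjusted p = 0.0748), also without overlap. Without node 292 or node 317 the 3 Mcl1 probe sets with the suffix _x passed, with adjusted p of 0.0297 to 0.0446. Bcl2l1 1420888_at passed without node 277 (adjusted p = 0.0474) or node 292 (adjusted p = 0.0369). Bbc3 (0.45 ± 0.34) and Bmf 1454880_s_at (-0.97 ± 0.61) did not pass, and their groups overlapped.

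The wild-type arrays differed from the nodes in cell type markers as well. The mean of 10 myeloid genes was 4.02 and 4.31 on the wild-type arrays and -0.96 to 1.19 in the nodes, and 8 of the 10 were lower in the nodes, S100a8 by 203-fold. The mean of 15 immediate-early and stress genes was 0.95 and 1.55 on the wild-type arrays and -0.71 to 1.35 in the nodes, with 4 lower. Erythroid (3 of 5) and stromal (4 of 8) genes were lower in the nodes too. The mean of 11 early B-lineage genes was 0.59 and 0.43 on the wild-type arrays and -0.78 to 0.62 in the nodes. Of the 11, 2 fell, Rag2 by 3.38-fold and Pax5 by 1.70-fold, and 1 was mixed. No mature B, T-cell or natural killer cell gene was called, and of 9 cycling genes 1 rose and 1 fell. The part of these lists in the differences of Pmaip1, Bik and Mcl1 was not tested. Of 19 apoptosome and caspase genes 5 rose and 3 fell, with Parp1 at 1.30 ± 0.31 and Xiap, an inhibitor of caspases, at -1.04 ± 0.11. Of 11 other family genes Bok, a relative of Bax and Bak1, rose (0.95 ± 0.18) and so did Bcl2l12 (0.75 ± 0.18). Of 18 p53 targets 2 rose and 6 fell, with Aen at 1.01 ± 0.14 and Gadd45a at -2.76 ± 0.47. Myc rose (1.68 ± 0.46), and Foxo1 (-0.90 ± 0.41) and Il7r (1.00 ± 0.38) did not pass.

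The lymph nodes differed from each other in 8 of the 9 genes beyond the spread between the 2 arrays of a node (63% of all genes did). Bik was the exception, at adjusted p of 0.0866 to 0.606 in limma's moderated F test. The titles of the nodes carry numbers, read here as 1 mouse each, and the spread between arrays of a node may be technical only.

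Bcl2 varied most. On 1437122_at the means of the 2 arrays were -3.01 in node 277, -0.79 in node 317, -0.05 in node 383, -0.03 in node 381, 0.23 in node 292, 0.24 in node 327, 0.65 in node 278 and 1.89 in node 279. Node 277 was lowest and node 279 highest on all 5 probe sets, 29.8-fold apart on 1437122_at (adjusted p = 1.35e-10), against a spread of 0.09 between arrays of a node. Node 277 lay below both wild-type arrays on 4 of the 5 probe sets, and 6 or 7 nodes lay above both. The probe sets that disagreed in the Ebf1-ER cells moved together here. Between the groups r was 0.825 to 0.956 over the node means and the 2 wild-type arrays.

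Node 317 was the highest for 3 of the 5 BH3-only genes, Bcl2l11, Pmaip1 and Bbc3. For Bcl2l11 1435448_at it stood at 2.45, and the other 7 lay between -0.49 (node 278) and 0.74 (node 279), 7.68-fold from lowest to highest (adjusted p = 2.71e-09). It was the highest node on all 5 Bcl2l11 probe sets, for Pmaip1 (1.82, with the others from -0.36 in node 381 to 0.49 in node 277) and for Bbc3 (1.11, with the others from -0.47 in node 381 to 0.40 in node 279). It was also highest on all 6 Mcl1 probe sets, for example 0.75 on 1448503_at against -0.51 (node 381) to 0.29 (node 292) in the others. On other Mcl1 probe sets node 292 was close to it. On 1416880_at node 317 stood at 0.42 and node 292 at 0.39, and on 1456381_x_at at 0.36 and 0.32. Single arrays of these nodes overlapped on both probe sets. The F test gave adjusted p of 1.29e-06 for Pmaip1, 5.47e-06 for Bbc3 and 1.59e-07 for Mcl1 1448503_at. Bmf had another order: on 1454880_s_at node 292 stood at 1.92 and node 279 at 1.06, and the other 6 lay between -0.72 and 0 (adjusted p = 1.56e-09), with node 317 at -0.19. On Bik 1420362_a_at node 317 was the lowest, at -0.19, but the nodes did not differ on it (F test, adjusted p = 0.606).

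**Figure D4:**
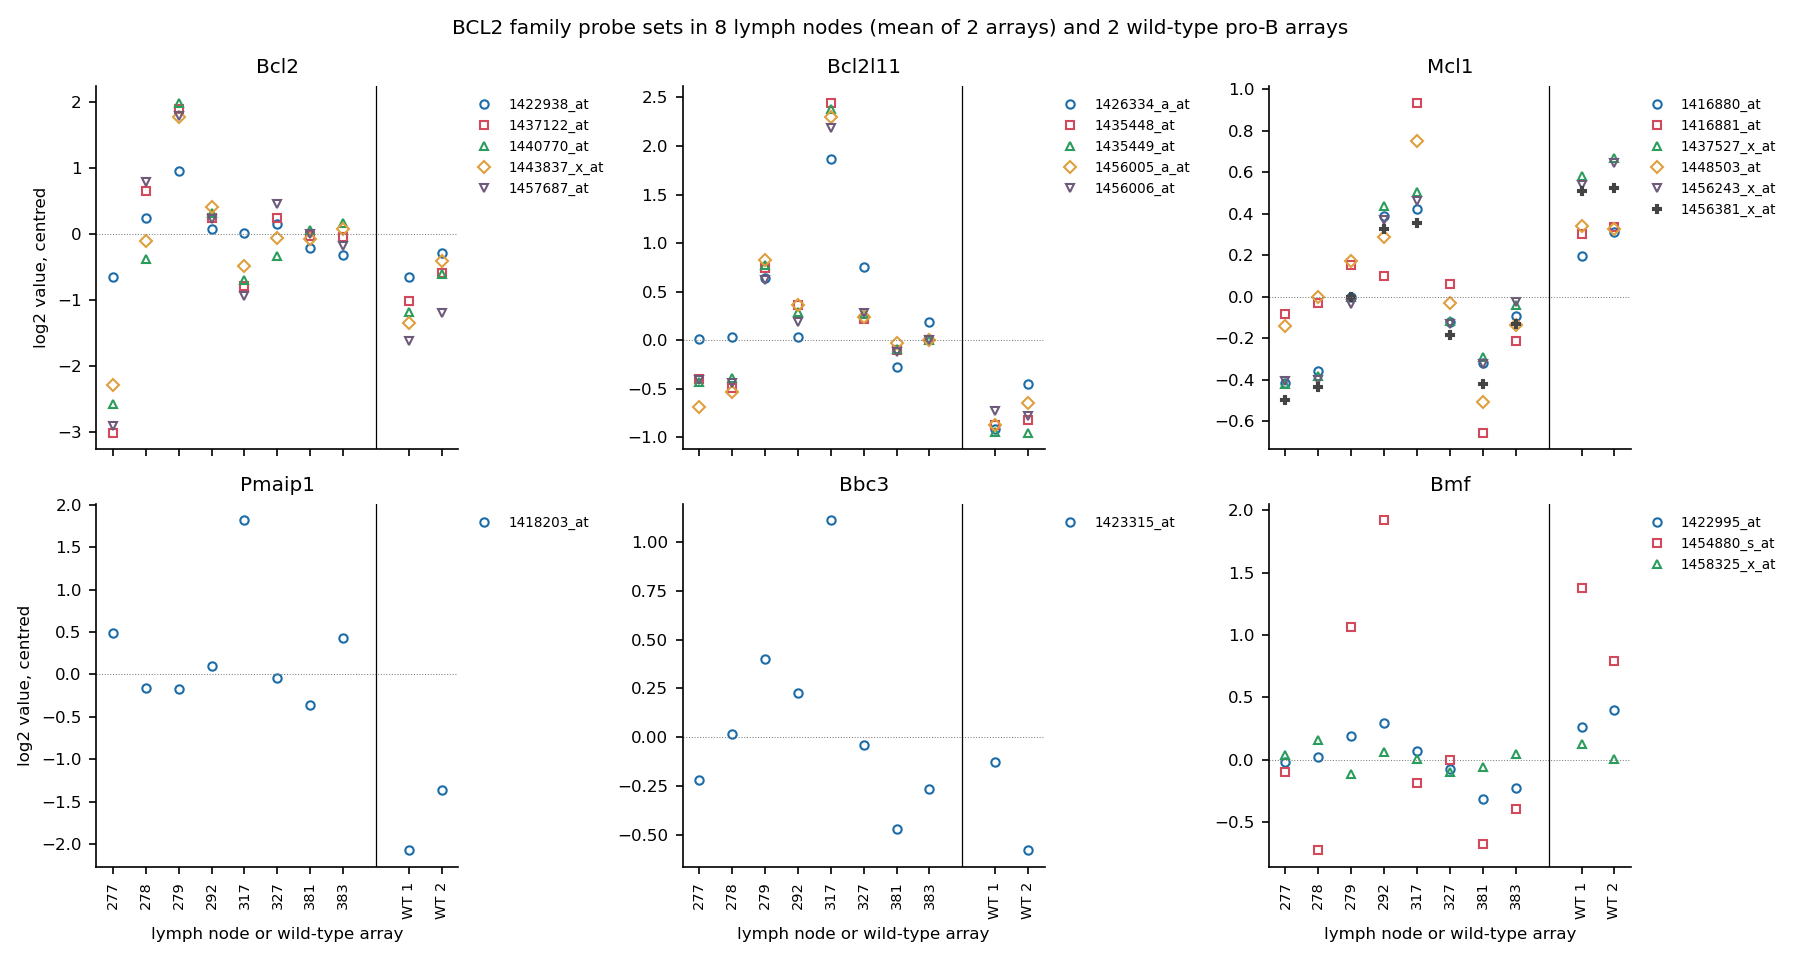
Centred log2 values (vertical axis) of 6 BCL2 family genes in the 8 lymph nodes, each the mean of 2 arrays, and, right of the line, in the 2 wild-type pro-B arrays (horizontal axis), with a symbol for each probe set. Node 277 is lowest and node 279 highest for Bcl2, node 317 is highest for Bcl2l11, Mcl1, Pmaip1 and Bbc3, and the wild-type arrays lie below all nodes for Pmaip1.

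Over the 8 nodes Mcl1 1416881_at and Bbc3 ran together, with Pearson's r of 0.959 and Spearman's rho of 0.976, and r of 0.872 without node 317. Over the 8 node means and the wild-type arrays, r of 1416881_at with the other Mcl1 probe sets was 0.693 to 0.972. Whether those probe sets also ran with Bbc3 was not computed. Bcl2l11 1435448_at and Bbc3 gave r of 0.907, and 0.658 without node 317. Bcl2l11 and Pmaip1 gave r of 0.776, and -0.233 without node 317, so that relation rests on 1 node. Bcl2 1457687_at and Pmaip1 gave r of -0.514, and -0.704 without node 317. Each gene stood with its most variable probe set, and these are descriptions among 15 pairs of genes over 8 nodes, whose values also share each node's mix of cells.

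Cell type markers differed between the same nodes. Node 279, the highest for Bcl2, had the highest mean of 9 T-cell genes (2.28, against -0.86 to 0.92 in the others), with Cd3e at 1.15, and the highest mean of mature B, natural killer and myeloid genes. Node 317 had the highest mean of immediate-early and stress genes (1.35) and the lowest Il7r (-0.96), and node 277, the lowest for Bcl2, had the lowest mean of immediate-early genes (-0.71) and the highest of cycling genes (0.29). Node 292, the highest for Bmf, had the highest mean of early B-lineage genes (0.62) and the highest Foxo1 (0.83). The part of these in the order of the BCL2 family genes was not tested.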

How the data were processed

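RNA was measured on 32 Affymetrix arrays of 3 experiments: 6 of the 230238 line, 8 of the Ebf1-ER cells and 18 of lymph nodes and wild-type pro-B cells. The deposited values are on a log2 scale, from RMA according to the labels' list of processing tools (per the submitters' processing notes). Their log base, not given in the sources used here, is assumed to be 2. In the deposited values each probe set had a median of 0 within the 230238 and Ebf1-ER experiments, and in the tumour experiment 24.0% of the 45101 probe sets did, so the constant subtracted there differs. Depth has no meaning for arrays, and their number limits the precision.

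The 64 control probe sets were left out, and 45037 were fitted per experiment with limma 3.58.1 in R 4.3.3 (lmFit, eBayes, Benjamini-Hochberg over all probe sets). The 2 arrays of a lymph node were averaged against wild-type cells, and a moderated F test compared the nodes over their 16 arrays. The fit was tested on simulated data. Members were named in full. From each companion list up to 2 called genes with the largest increase and 2 with the largest decrease per comparison could be named, and Foxo1, Il7r and Myc always could. The members and lists were chosen with earlier results of these data known. In the 230238 experiment arrays of the same number deviated together (r of 0.256, 0.387 and 0.481). The main fit did not use this pairing. Alternatives were a replicate block, thresholds, 1 fit over all groups, re-centred arrays, robust eBayes, probe set selection and leaving out arrays. Promoter windows came from RefSeq (GRCm38.p6). No column of values was left unmapped. Figures were drawn with matplotlib 3.10.9.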

Additional observations from a re-analysis of the deposited data

Results flagged for a closer look

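In 6 of the 30 BCL2 family probe sets 1 lymph node lay apart from the other 7 by Dixon's criterion, where chance flags about 1 in 20 groups and 9.67% of all 45037 probe sets (4357) had such a node. Node 317 was the highest for Pmaip1, at 1.82 against -0.36 to 0.49 in the others. The same node was the highest on 3 probe sets of Bcl2l11, at 2.45 on 1435448_at (others -0.49 to 0.74), 2.38 on 1435449_at (others -0.43 to 0.78) and 2.19 on 1456006_at (others -0.44 to 0.62). Node 277 was the highest for Bcl2l1 1420887_a_at, at 0.37 against -0.12 to 0.06, and for Bik 1449836_x_at, at 0.29 against -0.09 to 0.06. That Bik probe set did not pass limma's moderated F test between nodes (adjusted p = 0.0866). Groups of 2 or 3 arrays were not examined in this way.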

How the results depend on the processing

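No value for a called BCL2 family probe set reversed under the alternatives run. Counts below are of member genes called, and where they moved the cause was not tested. With 1 fit over all groups the counts went from 8 to 4 at 6 h against 0 h, from 2 to 0 at 12 h against 6 h, from 1 to 0 at 24 h against 12 h, from 8 to 5 at 24 h against 0 h and from 2 to 5 in the lymph nodes against wild-type cells. Asking also for an absolute log2 change of at least 1 left 4, 0, 1, 4 and 1 in the same order and 2 of 4 with Ebf1-Engrailed. An adjusted p under 0.01 left 0 at 12 h against 6 h, 2 with Ebf1-Engrailed and 1 in the nodes. The mean of a gene's probe sets gave 2 at 24 h against 12 h and 2 with Ebf1-Engrailed, and the most variable probe set gave 2 with Ebf1-Engrailed. Leaving out the _x_at and _s_at probe sets left 1 at 12 h against 6 h. In the nodes the 22518 most variable probe sets left 1, and the node as a random block gave 4.

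With the replicate block, 9 member probe sets in place of 7 were called with Ebf1-Engrailed, and 6167 of all in place of 3984. In the Ebf1-ER cells same-numbered arrays shared only a number (r from -0.171 to 0.152 over 12 pairs). With 2 arrays per time the deviations mirror each other, so both numbers give the same r and the pairs are not independent. The replicate block took the genes called at 12 h against 6 h from 2 to 1, losing Bmf. It changed no other call of a member in that experiment.

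Leaving out 1 array gave 6 to 8 genes at 6 h against 0 h and at 24 h against 0 h, 0 to 2 at 12 h against 6 h, 0 to 1 at 24 h against 12 h and 2 to 4 with Ebf1-Engrailed. In the nodes against wild-type cells it gave 0 without wild-type array 1 and 1 without array 2, and leaving out 1 lymph node, with both of its arrays, gave 2 to 4, with 4 without node 292 or node 317. Groups of 2 or 3 arrays limit every comparison.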
